A study of Mus musculus with 34 samples.

Results

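The nuclear genes of the mitochondrial respiratory chain were followed through 6 groups of C57BL/6 mouse embryonic stem (ES) cell RNAs. A gene was a member if its symbol began with Nduf followed by a, b, c, s or v, with Uqcr, with Cox4 to Cox8, with Sdha to Sdhd, or with Atp5. This gave 87 of the 12394 genes with a probe set of 1 symbol on the MOE430A array, and each was read from its brightest probe set. They were 33 subunits of complex I, 4 of complex II, 8 of complex III, 17 of complex IV and 17 of complex V, and 8 assembly factors. Of these, 85 passed the filter on low values. The cytochrome oxidase subunit Cox7c exceeded its array's median on 1 of 17 arrays and the muscle isoform Cox8b on 0, and both were left untested.

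The cells were 2 lines, D4 and C2, both derived from blastocysts and grown on mouse embryonic fibroblast feeders. Late-passage cells, which gave high chimerism and germline transmission, grew in a medium named Thromb-XTX-WES and were sampled in fractions labelled detached and attached. Early-passage cells, which gave low chimerism and no germline transmission, grew in DMEM with 15% fetal bovine serum. All cultures held LIF, glutamine, non-essential amino acids, sodium pyruvate and beta-mercaptoethanol. Each line gave 3 RNAs in each of the states late detached, late attached and early, except 2 for D4 late detached, so that 11 late and 6 early RNAs were measured. Passage, medium and chimerism changed together, so their shares in any difference cannot be told apart. The surface meant by detached and attached is not named in the labels. Nothing in them says that replicate RNAs had separate cultures, so p-values cover only a spread among RNAs that may be technical.

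The respiratory chain sits in the inner mitochondrial membrane. Complexes I and II take electrons from NADH and succinate, coenzyme Q passes them to complex III, cytochrome c carries them to complex IV, and complex IV reduces oxygen. Complexes I, III and IV pump protons, and complex V, the ATP synthase, uses the proton gradient to make ATP. Mouse ES cells use both this route and glycolysis, and the balance between them is known to shift as pluripotent cells move from the naive to the primed state. Most subunits are encoded in the nucleus, and these are the genes measured here.

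Read from its brightest probe set, no respiratory chain gene passed the test in the comparisons made between the 6 groups. Another probe set of Cox6c passed between late and early RNAs and is given below. The group means of a member spanned a median of 0.36 in log2 units, with 23 of 85 members over 0.5 and 2 over 1. Between late and early RNAs, 0 of 85 members were called by limma at an adjusted p under 0.05, where 3.38% of all 14160 tested probe sets were called. The counts were also 0 for late detached against early RNAs (all probe sets 4.63%), for late attached against early RNAs (0.177%), for late detached against late attached RNAs (0.466%) and for D4 against C2 (0%). A test for any difference among the 6 groups called 0 of 85 members, against 0.84% of all probe sets. Its unadjusted p was under 0.05 for 3 members, against 14.9% of all probe sets. Without adjustment, 5 members had a limma p under 0.05 between late and early RNAs, which is 5.88% of the members, while the share among all tested probe sets was 18%. The unadjusted counts were 3 for detached against early (all probe sets 22.6%), 4 for attached against early (11.8%), 6 for detached against attached (15%) and 2 for D4 against C2 (6.12%). With other processing choices, 1 or 2 members were called in some comparisons, and the ATP synthase gene Atp5g1 was the usual one. In those fits 209 to 1766 of all tested probe sets were called.

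**Figure D1:**
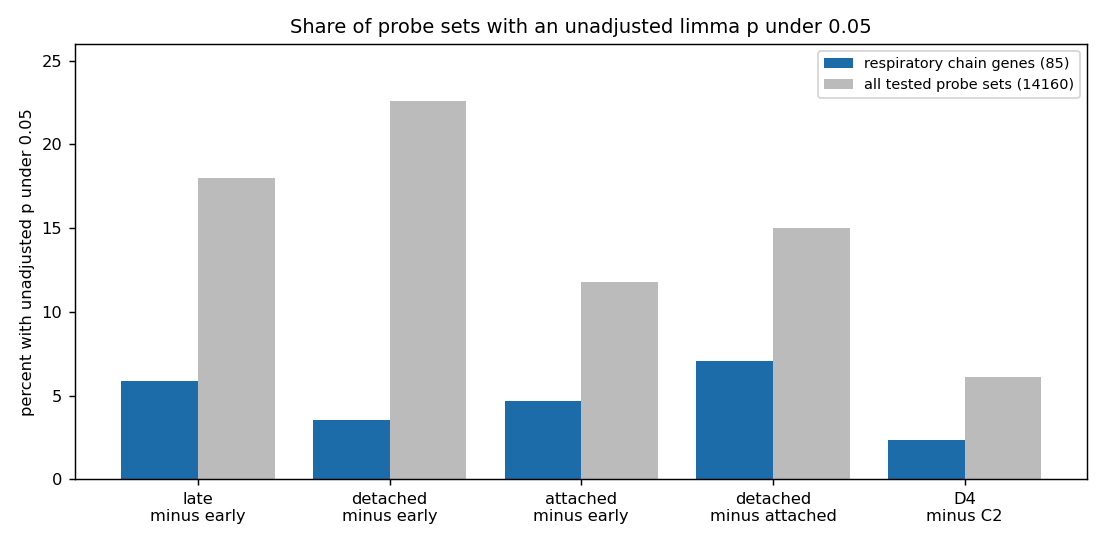
Percent of probe sets with an unadjusted limma p under 0.05 (vertical axis, from 0) in each of 5 comparisons (horizontal axis), for the 85 tested respiratory chain genes (left bars) and all 14160 tested probe sets (right bars). The members' share was 5.88% against 18% for late minus early and 7.06% against 15% for detached minus attached.

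The intervals give, for each member singly, the range of change left by the spread among RNAs. As for the p-values, that spread may be technical, and the intervals make no allowance for the number of members. All changes are given in log2 units of signal + 16, where 0.5 is 1.41-fold. For late minus early, the 95% interval of 68 of the 85 members lay within 0.5 on either side of 0, and that of 84 lay within 1. The exception was Cox6a2, the heart and muscle isoform of a cytochrome oxidase subunit, at -0.37 (95% interval -1.26 to 0.53). The largest fitted changes were -0.37 and 0.47, and 0 members changed by more than 0.5 in the fit, against 12.7% of all tested probe sets. The median change was 0.03 over the members and -0.01 over all tested probe sets. For D4 minus C2, 69 intervals lay within 0.5. The intervals were wider for detached minus attached, where 41 of 85 lay within 0.5 and 80 within 1. Between 2 states of 1 line the precision was lower, with 11 (D4 detached minus early) to 21 (C2 detached minus early) intervals within 0.5. The probe sets of the members varied little within a group, with a median within-group SD of 0.23 against 0.35 over all tested probe sets. They were also brighter, with a median mean log2 level of 12.94 against 10.28, and the SD was not compared at like level. Of the 85, 80 exceeded their array's median on all 17 arrays.

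Cell makeup and array quality moved with the groups and are given here once. The 28 fibroblast marker genes on the array had a mean log2 level of 9.25 in D4 late detached RNAs, 10.68 in D4 late attached RNAs and 11.82 in D4 early RNAs. In C2 this level was 9.44 in late detached RNAs, 10.91 in late attached RNAs and 11.56 in early RNAs. Of the 24 fibroblast markers tested, 0 were higher and 19 lower in late RNAs, where 3.38% of all tested probe sets were called in either direction. All 12 ES cell markers exceeded the array median on every array, and their mean log2 level in D4 was 13.51 in late detached, 13.45 in late attached and 13.13 in early RNAs. In C2 it was 13.45 in late detached, 13.17 in late attached and 13.03 in early RNAs. The mean of 6 endoderm markers in D4 was 8.71 in late detached, 8.99 in late attached and 8.57 in early RNAs, and in C2 8.93 in late detached, 9.39 in late attached and 8.71 in early RNAs. It was highest in attached RNAs in both lines. Feeders also express the respiratory chain, and the part of these cell types in the members' values was not tested. In bulk RNA, fewer cells of a type and less RNA per cell cannot be told apart. On 1 array, C2 late attached replicate 1, the dimmest probe sets read high (5th percentile of signal 109, against at most 37.6 elsewhere). D4 late attached replicate 3 had a 3′ to 5′ Actb signal ratio of 1.84, against at most 1.21 elsewhere. Medians of signal ranged over the 17 arrays from 529 to 817. All C2 arrays and the D4 late attached arrays were logged on 1 day, the D4 late detached and D4 early arrays on another. Differences between D4 attached RNAs and the other D4 states, and line differences that use them, therefore cannot be told apart from the day. The same holds for D4 minus C2 in detached and in early RNAs, and for their part in D4 minus C2 over all states. Only the attached RNAs of both lines were logged on the same day.

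Some sequence motifs stood in more of the members' promoters than in promoters at large, and none stood in most of them. RefSeq windows of GRCm38.p6, from 250 bases before to 50 after the start site, were matched by gene identifier to 73 of the 87 members (78 windows). The letters GCGCNNGCG, which make up most of the palindrome bound by nuclear respiratory factor NRF1, stood on either strand in 32 of 78 windows (41%). Among all 32851 windows the share was 12.1%, and among the 21263 windows of protein-coding genes 16.3%. CCGGAAG, an ETS core of the kind that GABP (NRF2) binds, stood in 20 windows (25.6%, all windows 8.86%, protein-coding 11.6%). AAGATGGC, a YY1-type motif, stood in 9 (11.5%, all windows 2.75%, protein-coding 3.05%). CCAAT was found in 38.5% of member windows and 37.4% of all windows, TATAAA in 10.3% and 13.6%, and the GC box GGGCGG in 44.9% and 35.7% (protein-coding 46.2%). At least 1 of the first 3 motifs was present for 50 of the 73 genes, with 13 of 15 in complex V, 20 of 30 in complex I and 3 of 12 in complex IV. In the member windows, matches of different motifs overlapped 3 times. These letters describe the windows and show no binding.

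The windows of 5 members that recur in the results are printed 5′ to 3′ in the sense of the gene, from 150 bases before to 30 after the start site. Capitals mark the NRF1-type, ETS, YY1-type and CCAAT letters on either strand. Ndufs3 lies at chr2:90904692-90904871 (minus strand), Sdhd at chr9:50603820-50603999 (minus strand), Uqcrc1 at chr9:108936498-108936677 (plus strand), Cox6b2 at chr7:4753065-4753244 (minus strand) and Atp5g1 at chr11:96075602-96075781 (minus strand). The windows of Sdhd and Uqcrc1 hold the NRF1-type letters and those of Ndufs3 and Sdhd the ETS core. The windows of Atp5g1 and Cox6b2 hold CCAAT and none of the first 3 motifs.
Ndufs3 promoter: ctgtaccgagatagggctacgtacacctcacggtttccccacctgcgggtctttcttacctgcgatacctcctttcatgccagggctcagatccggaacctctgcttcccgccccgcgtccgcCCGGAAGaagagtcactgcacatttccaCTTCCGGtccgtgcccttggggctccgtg
Sdhd promoter: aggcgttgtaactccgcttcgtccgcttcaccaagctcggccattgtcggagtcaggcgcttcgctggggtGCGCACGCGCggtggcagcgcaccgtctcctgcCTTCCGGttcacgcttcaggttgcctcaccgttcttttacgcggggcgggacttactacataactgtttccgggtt
Uqcrc1 promoter: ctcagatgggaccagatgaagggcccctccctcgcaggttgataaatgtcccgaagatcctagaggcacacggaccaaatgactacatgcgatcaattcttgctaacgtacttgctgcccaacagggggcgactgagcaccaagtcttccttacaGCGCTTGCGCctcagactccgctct
Cox6b2 promoter: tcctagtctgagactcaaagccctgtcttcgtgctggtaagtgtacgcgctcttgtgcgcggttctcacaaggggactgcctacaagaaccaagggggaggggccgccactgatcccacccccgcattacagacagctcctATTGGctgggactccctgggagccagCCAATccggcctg
Atp5g1 promoter: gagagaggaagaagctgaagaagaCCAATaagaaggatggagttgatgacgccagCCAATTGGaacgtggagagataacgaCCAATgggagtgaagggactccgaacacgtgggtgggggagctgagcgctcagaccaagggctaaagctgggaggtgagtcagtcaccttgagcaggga

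Averaged over its members on each array, each complex kept a narrow range. The mean log2 level of the 33 complex I genes was 12.78 ± 0.07 in D4 late detached RNAs (SD, n = 2), 12.67 ± 0.18 in D4 late attached RNAs and 12.65 ± 0.24 in D4 early RNAs (SD, n = 3 each). In C2 it was 12.76 ± 0.04 in late detached, 12.53 ± 0.20 in late attached and 12.63 ± 0.12 in early RNAs (SD, n = 3 each). For complex I, all 3 C2 detached values lay above all 3 C2 attached values, and the other pairs of groups within a line overlapped. For complex II, the D4 attached values (12.66 to 12.85) lay below the D4 detached (13.03 to 13.11) and D4 early values (12.95 to 13.13). For the assembly factors, the D4 detached values (10.88 to 10.93) lay above the D4 attached (10.59 to 10.87) and D4 early values (10.59 to 10.76). In complexes III, IV and V all pairs of groups within a line overlapped. The group means spanned 0.25 for complex I, 0.32 for II, 0.14 for III, 0.15 for IV, 0.20 for V and 0.21 for the assembly factors. The single arrays spanned more, from 0.36 for complex III to 0.60 for complex I.

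**Figure D2:**
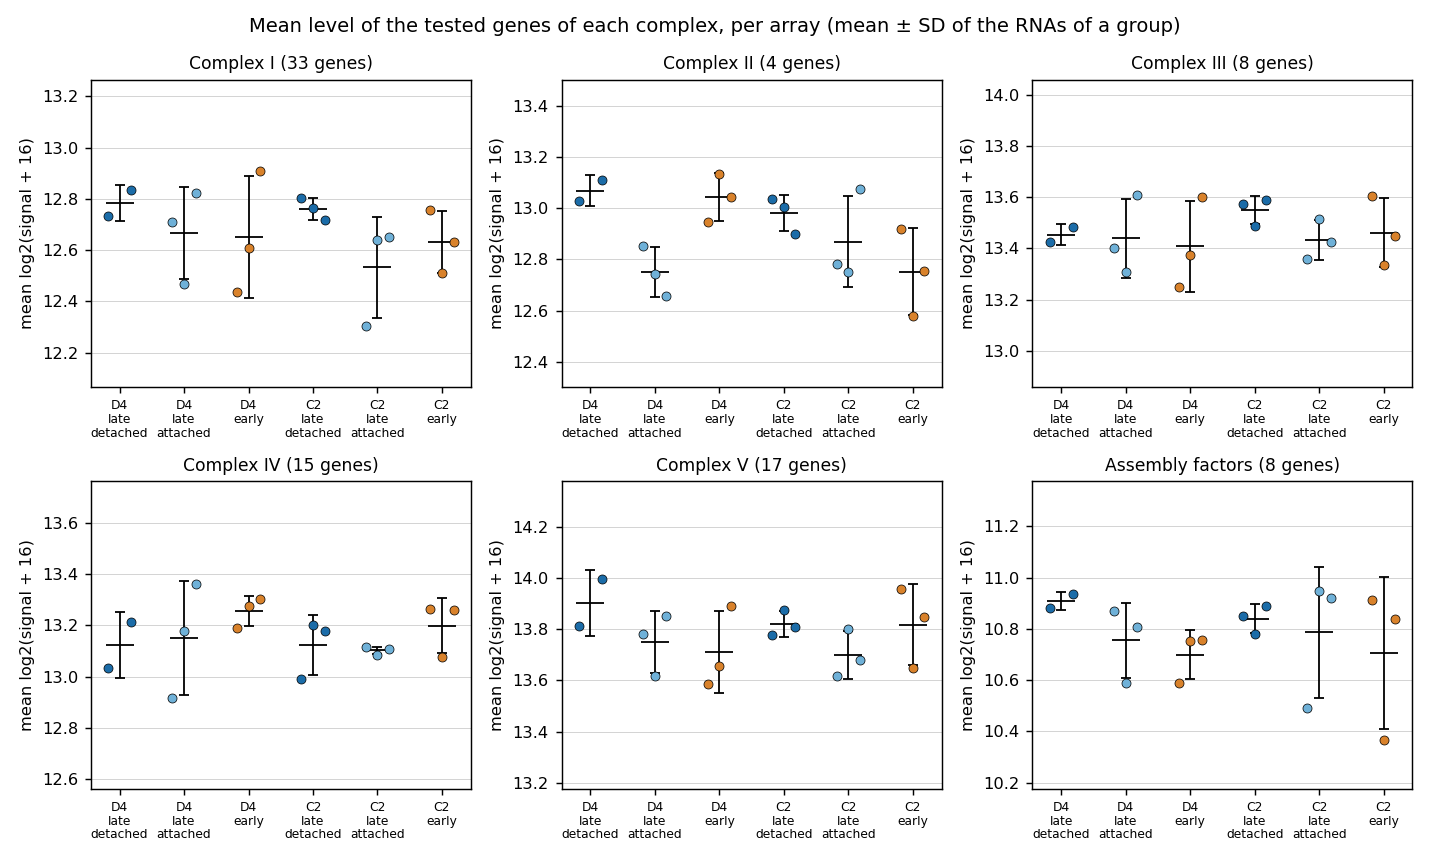
Mean log2(signal + 16) over the tested genes of each complex (vertical axes, each spanning 1.2 units) on each array, by line and state (horizontal axes). Points are RNAs, bars the mean and SD of a group. The group means spanned 0.14 in complex III to 0.32 in complex II.

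The signs of the fitted late minus early changes were counted by complex, and no test of a difference between complexes was made. The members' median SE in this comparison was 0.13. Of 33 complex I genes, 22 had a change above 0 (median 0.06), and of 17 complex V genes 10 did (median 0.06). Of 15 complex IV genes, 11 had a change below 0 (median -0.13). Complex III had 3 of 8 above 0, complex II 2 of 4 and the assembly factors 6 of 8. Over all tested probe sets 48.5% lay above 0. For complex IV, 13 of 15 lay below 0 in detached against early RNAs and 12 of 15 in attached against early RNAs, and both counts use the same early RNAs.

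In complex I, Ndufs3, a core subunit of the arm that oxidises NADH, had the smallest p of all members between late and early RNAs. In D4 its log2 level was 12.29 and 12.25 in late detached RNAs, 12.41, 12.30 and 12.57 in late attached RNAs and 11.75, 12.05 and 12.34 in early RNAs. In C2 it was 12.34, 12.26 and 12.38 in late detached RNAs, 11.74, 12.03 and 12.16 in late attached RNAs and 11.76, 11.97 and 11.83 in early RNAs. The 3 C2 early values lay below all C2 detached values, as in either direction for 19.2% of all tested probe sets, and D4 early replicate 3 lay among the late values. Late minus early was 0.30 (95% interval 0.06 to 0.54, adjusted p = 0.161), or 1.23-fold. Over the alternative settings, its adjusted p ranged from 0.0669 to 0.408. Ndufv1, the flavoprotein that takes electrons from NADH, had a change of 0.20 (95% interval -0.02 to 0.41), and Ndufs1, the largest iron-sulphur subunit, one of 0.18 (95% interval -0.15 to 0.51). Ndufs4, an accessory subunit needed for complex I stability in the mouse, had one of -0.00 (95% interval -0.24 to 0.24).

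Ndufs4 was the complex I gene with the smallest p between detached and attached RNAs. Its log2 level in D4 was 12.26 and 12.13 in late detached RNAs, 12.00, 11.73 and 11.98 in late attached RNAs and 11.95, 11.97 and 12.07 in early RNAs. Its level in C2 was 12.11, 12.38 and 12.21 in late detached RNAs, 11.86, 11.59 and 11.79 in late attached RNAs and 12.43, 11.85 and 11.84 in early RNAs. Every detached value exceeded every attached value in both lines, while 1 early C2 value was the highest of all. Among all tested probe sets, 2.32% separated detached from attached RNAs in this way, and 2 of 85 members did, the other being Atp5g1. Detached minus attached was 0.39 (95% interval 0.10 to 0.68, adjusted p = 0.218). Ndufab1, the mitochondrial acyl carrier protein that is also a complex I subunit, had 0.42 (95% interval 0.06 to 0.78, adjusted p = 0.268), and 0.25 without both arrays of unusual quality. A second tested probe set of Ndufab1 had a detached minus attached change of -0.04.

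In complex II, which links the chain to the citric acid cycle, the catalytic flavoprotein Sdha had a late minus early change of 0.10 (95% interval -0.15 to 0.35) and the iron-sulphur subunit Sdhb one of 0.11 (95% interval -0.12 to 0.33). Sdhd, a membrane anchor of the complex, varied most. Its log2 level in D4 was 13.05 and 13.22 in late detached RNAs, 12.85, 12.46 and 12.37 in late attached RNAs and 13.26, 13.33 and 13.51 in early RNAs. Its level in C2 was 13.10, 13.04 and 13.15 in late detached RNAs, 12.49, 12.50 and 13.42 in late attached RNAs and 13.29, 12.28 and 12.41 in early RNAs. The C2 attached and C2 early groups each held 2 values of 12.50 or below beside values of 13.42 and 13.29, and their ranges took in the C2 detached values. In D4 all early values lay above both detached values, and these above all attached values. In D4, 39.3% of all tested probe sets separated detached from early RNAs and 22.2% detached from attached RNAs. Detached minus attached was 0.43 (95% interval -0.02 to 0.88, adjusted p = 0.355). Its other tested probe set had -0.22 in the same comparison.

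In complex III, Uqcrc2, a core protein of the complex on the matrix side, had a late minus early change of 0.30 (95% interval 0.05 to 0.55, adjusted p = 0.181), or 1.23-fold. Its log2 level in D4 was 12.91 and 12.68 in late detached RNAs, 12.96, 13.10 and 13.13 in late attached RNAs and 12.46, 12.73 and 12.74 in early RNAs. Its level in C2 was 13.08, 12.82 and 12.95 in late detached RNAs, 12.79, 13.02 and 12.94 in late attached RNAs and 12.87, 12.23 and 12.76 in early RNAs. D4 attached values all exceeded D4 early values (groups apart for 16% of all tested probe sets), while the C2 groups overlapped, with the lowest value of the gene in C2 early replicate 2. Its second tested probe set had a late minus early change of 0.14 (SE 0.19). Its partner Uqcrc1 had a change of -0.01 (95% interval -0.25 to 0.24). The Rieske iron-sulphur protein Uqcrfs1 had one of 0.20 (95% interval -0.08 to 0.48), and the small subunit Uqcr10 differed between D4 and C2 by -0.21 (95% interval -0.46 to 0.05).

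In complex IV, cytochrome c oxidase, Cox5b had the smallest p between late and early RNAs. Cox5b is a nuclear subunit that binds zinc. Its log2 level in D4 was 14.91 and 14.80 in late detached RNAs, 14.60, 14.81 and 15.12 in late attached RNAs and 15.10, 15.28 and 15.06 in early RNAs. Its level in C2 was 14.57, 14.98 and 15.11 in late detached RNAs, 14.95, 14.92 and 14.85 in late attached RNAs and 15.21, 15.09 and 14.99 in early RNAs. The early values ran from 14.99 up and overlapped the late values in both lines. In D4 both detached values lay below all early values, as in either direction for 39.3% of all tested probe sets. Late minus early was -0.25 (95% interval -0.49 to -0.01, adjusted p = 0.266), that is 1.19-fold lower in late RNAs in the fit. Of its 4 other tested probe sets, 2 gave changes of -0.23 and -0.22 and 2 gave changes of 0.03 and 0.01.

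The 6 ubiquitous complex IV isoforms listed here leaned the same way between late and early RNAs, by small amounts. Late minus early was -0.15 (95% interval -0.38 to 0.08) for Cox4i1, -0.13 (95% interval -0.41 to 0.15) for Cox5a and -0.06 (95% interval -0.27 to 0.15) for Cox6a1. It was -0.12 (95% interval -0.38 to 0.15) for Cox6b1, -0.06 (95% interval -0.30 to 0.18) for Cox7a2 and -0.22 (95% interval -0.53 to 0.09) for Cox8a. All 6 fitted changes were below 0, and all 6 intervals held 0. Ndufa4, a complex IV subunit despite its name, had -0.13 (95% interval -0.35 to 0.09). Cox7a2l, linked to supercomplexes of complexes III and IV, had -0.27 (95% interval -0.70 to 0.16). The complex IV subunit Cox6c, outside the list of 6, went the other way. The late minus early changes of its brightest probe set were 0.03 in D4 and 0.02 in C2.

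Among the tissue isoforms of complex IV, Cox4i2 had the largest fitted difference between detached and attached RNAs. Cox4i2 replaces Cox4i1 in lung and in low oxygen. Its log2 level in D4 was 8.75 and 9.39 in late detached RNAs, 9.31, 9.83 and 9.81 in late attached RNAs and 9.53, 9.30 and 9.79 in early RNAs. Its level in C2 was 9.32, 9.54 and 9.45 in late detached RNAs, 10.85, 10.05 and 9.91 in late attached RNAs and 9.55, 9.14 and 9.96 in early RNAs. All 3 C2 attached values exceeded all C2 detached values, while the D4 groups overlapped. Within C2, 23% of all tested probe sets separated these states, and within D4 22.2%. Detached minus attached was -0.71 (95% interval -1.16 to -0.25, adjusted p = 0.174), that is 1.63-fold lower in detached RNAs in the fit, and over the alternative settings its adjusted p ranged from 0.0662 to 0.469. The highest value came from C2 late attached replicate 1, the array whose dim probe sets read high, and without that array the change was -0.56. Fibroblast markers were also lower in detached RNAs (9 of 24 called, against 0.466% of all tested probe sets), and their part in this value was not tested. Cox7a1, a heart and muscle isoform, had -0.52 (95% interval -1.10 to 0.06, adjusted p = 0.380) in the same comparison.

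Cox6b2 and Cox8c, isoforms known from testis, had the smallest p among all members between the lines. The log2 level of Cox6b2 in D4 was 12.69 and 12.83 in late detached RNAs, 12.74, 12.36 and 12.55 in late attached RNAs and 11.88, 13.18 and 12.69 in early RNAs. Its level in C2 was 12.27, 12.51 and 12.21 in late detached RNAs, 11.28, 12.26 and 12.25 in late attached RNAs and 12.25, 11.66 and 12.07 in early RNAs. The D4 early values lay from 11.88 to 13.18 and overlapped the C2 values. In late detached and in late attached RNAs, all D4 values lay above all C2 values of the same state. Groups stood apart in these comparisons, in either direction, for 20.6% and 14% of all tested probe sets. D4 minus C2 was 0.55 (95% interval 0.14 to 0.95, adjusted p = 0.795), or 1.46-fold. Cox8c read 11.26 and 10.79 in late detached RNAs, 11.11, 11.58 and 11.15 in late attached RNAs and 11.51, 11.40 and 11.32 in early RNAs in D4. In C2 it read 11.19, 11.33 and 11.38 in late detached RNAs, 11.97, 11.73 and 11.34 in late attached RNAs and 11.38, 11.67 and 11.55 in early RNAs. D4 minus C2 was -0.27 (95% interval -0.52 to -0.01, adjusted p = 0.806), with overlapping lines. Over the alternative settings the adjusted p ranged from 0.438 to 0.995 for Cox6b2 and from 0.513 to 0.995 for Cox8c. Over all states, 0 members had values that did not overlap between the lines, and the share among all probe sets was 0.00706%.

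In complex V, Atp5g1 had the largest fitted change of all members. Atp5g1, Atp5g2 and Atp5g3 encode the same mature subunit c, which forms the rotating ring of the ATP synthase. The log2 level of Atp5g1 in D4 was 13.82 and 13.89 in late detached RNAs, 13.63, 12.75 and 12.86 in late attached RNAs and 12.23, 12.43 and 13.52 in early RNAs. In C2 its level was 13.73, 14.08 and 13.71 in late detached RNAs, 13.18, 13.10 and 12.98 in late attached RNAs and 13.53, 13.33 and 12.91 in early RNAs. All 5 detached values lay above all 6 attached and all 6 early values, and the highest values outside the detached group were 13.63 in D4 late attached replicate 1 and 13.53 in C2 early replicate 1. Groups separated in this way for 5.94% of all tested probe sets in detached against early RNAs, and for 2 of 85 members, Atp5g1 and the complex I core subunit Ndufv2, which was named after its values were seen.

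Detached minus early was 0.86 (95% interval 0.36 to 1.36, adjusted p = 0.0520) for Atp5g1, or 1.81-fold, which did not pass the test. Its adjusted p ranged from 0.00748 to 0.164 over the alternative settings. The gene was called without D4 early replicate 3, whose value of 13.52 stood above the other D4 early values. In that fit 835 of all 14160 tested probe sets were called. Detached minus attached was 0.77 (95% interval 0.27 to 1.27, adjusted p = 0.181), or 1.70-fold, and late minus early 0.47 (95% interval 0.06 to 0.89, adjusted p = 0.214). The 2 detached comparisons share the detached RNAs. Within a fluidics run, the wash and stain batch inferred from logged times, Atp5g1 was higher in detached RNAs by 1.53 than in early RNAs in D4 (2 against 2). That value leaves out D4 early replicate 3, the highest D4 early value, which was in another run. In C2 the within-run detached minus early difference was 0.46 (2 against 2), and detached minus attached was 0.64 (1 against 3). With all RNAs, detached minus early was 1.13 in D4 and 0.58 in C2. No run held both detached and attached D4 RNAs. Only 1 probe set of Atp5g1 was tested.

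The other subunit c genes did not share the pattern in size. Detached minus early was 0.07 (95% interval -0.21 to 0.34) for Atp5g2 and -0.08 (95% interval -0.33 to 0.17) for Atp5g3. The catalytic subunits had -0.18 (95% interval -0.49 to 0.12) for Atp5a1 and 0.12 (95% interval -0.16 to 0.40) for Atp5b in the same comparison. Atp5j2, subunit f of the membrane part, had a D4 minus C2 difference of 0.15 (95% interval -0.12 to 0.42). No test of a difference between these genes was made.

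**Figure D3:**
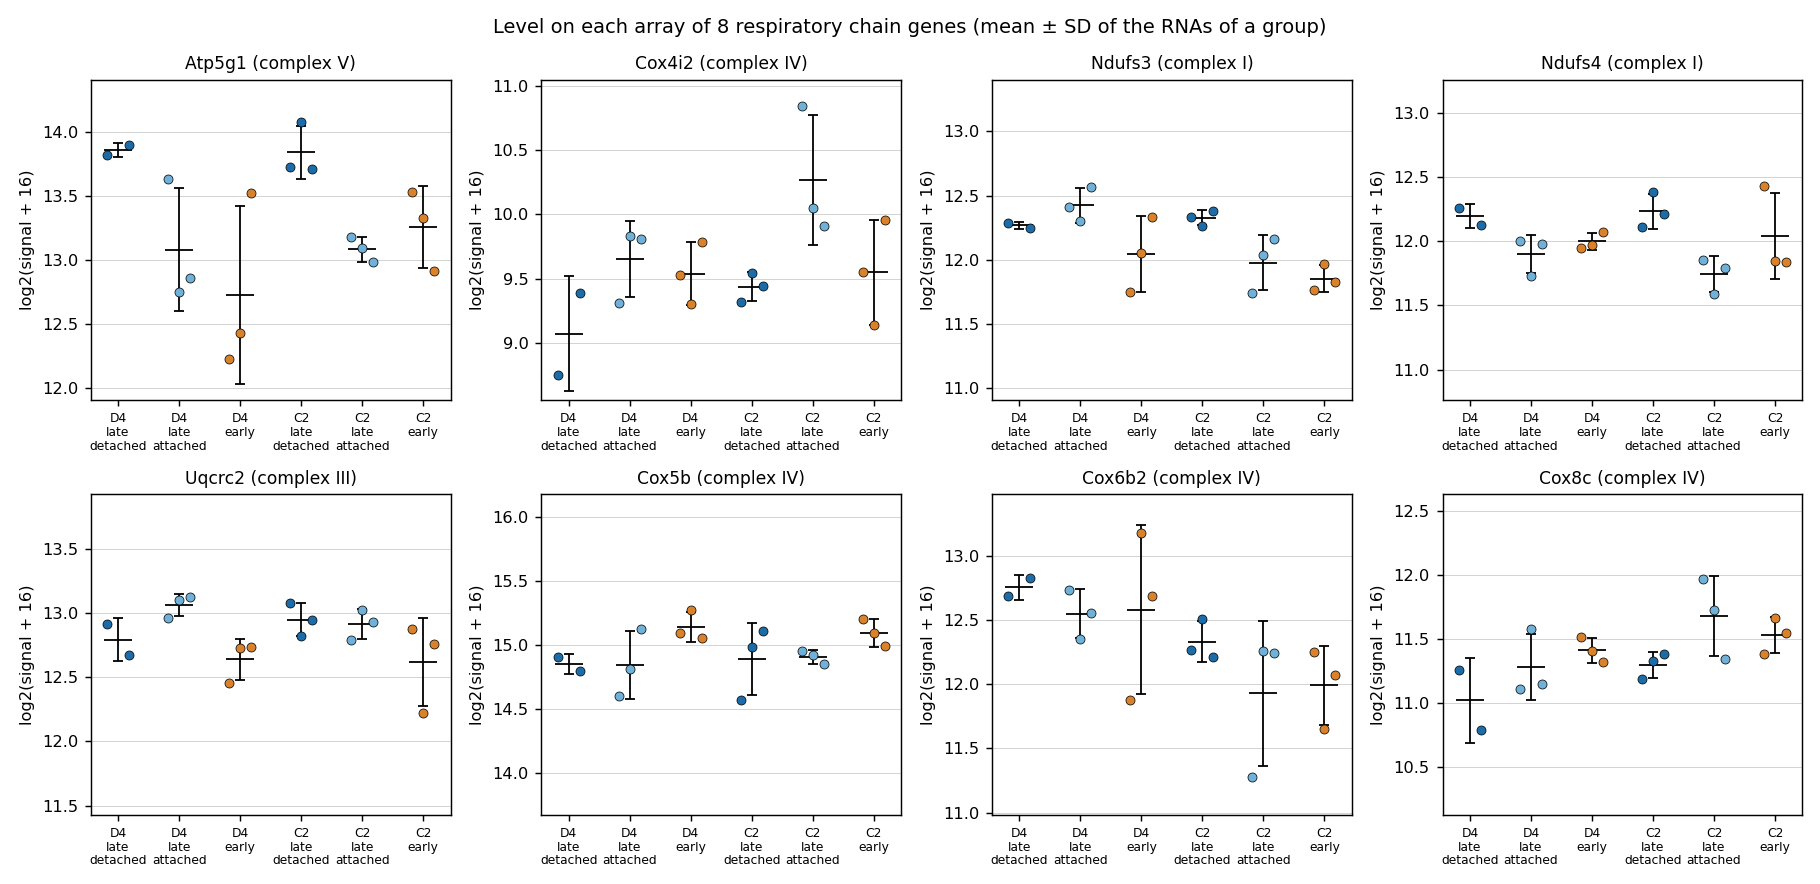
Log2(signal + 16) (vertical axes, each spanning 2.5 units) on each array for 8 members, by line and state (horizontal axes). Points are RNAs, bars the mean and SD of a group. The 5 detached RNAs of Atp5g1 lie above all other RNAs. For Cox5b, Cox6b2 and Uqcrc2 some groups overlap and others stand apart.

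None of the 8 assembly factors passed the test either, where 3.38% of all tested probe sets were called for late minus early. That share was 0.466% for detached minus attached and 0% for D4 minus C2. Ndufaf1, which helps to build the membrane arm of complex I, had a late minus early change of 0.36 (95% interval -0.05 to 0.77, adjusted p = 0.343). Ndufaf3, another complex I assembly factor, had a detached minus attached change of 0.34 (95% interval -0.03 to 0.71). Sdhaf4, which assists the assembly of complex II, had a D4 minus C2 difference of -0.27 (95% interval -0.57 to 0.04).

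Between detached and attached RNAs more fitted changes of members lay above 0 than below, by an amount that depended on the scaling. The change was above 0 for 66 of 85 members (77.6%), against 47.9% of all tested probe sets. The medians were 0.13 and -0.02. Complex I had 30 of 33 (median 0.17) above 0, complex V 13 of 17 (median 0.10), complex III 6 of 8 (median 0.09) and complex II 3 of 4 (median 0.22). The assembly factors had 5 of 8 (median 0.12) and complex IV 9 of 15 (median 0.07). After quantile normalization, 52 of 85 members lay above 0 and the medians were 0.05 for the members and 0.03 for all probe sets. Within the only run that held both states, in C2 with 1 detached and 3 attached RNAs, the members' median was 0.11 and 64 of 85 lay above 0. The fibroblast markers had a median of -1.47 in this comparison. The mean of the ES cell markers was higher and that of the endoderm markers lower in detached than in attached RNAs in both lines. The part of any of them in these counts was not tested.

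**Figure D4:**
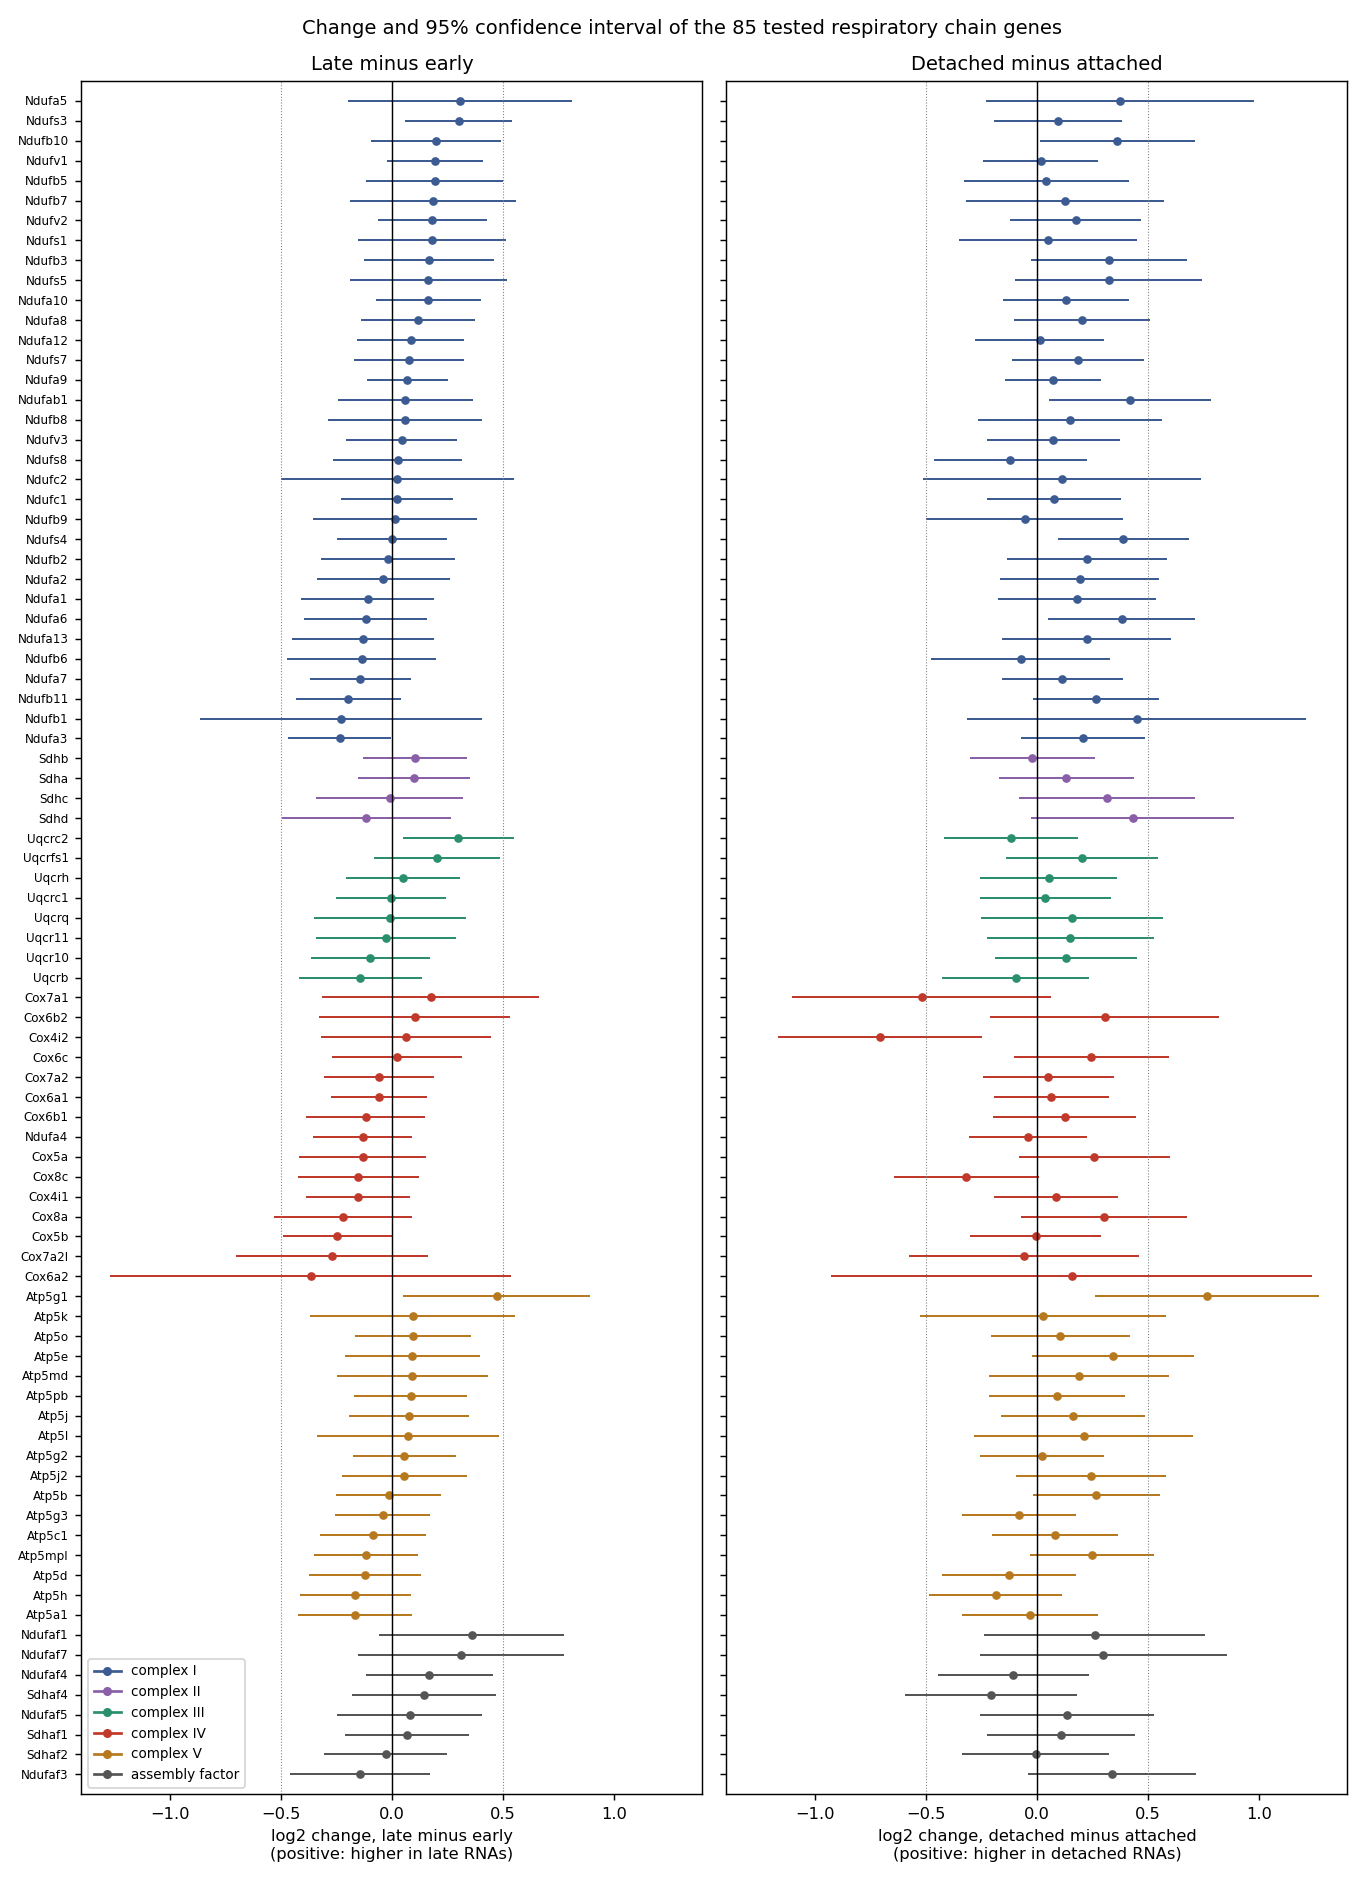
Fitted log2 change (points) and 95% confidence interval (lines) of the 85 tested members, by complex, for late minus early (left) and detached minus attached (right). Dotted lines mark 0.5 on either side of 0. On the left 68 intervals lie within the dotted lines, on the right 41.

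Neither line alone gave a call. In D4, 0 of 85 members were called for late minus early (all probe sets 1.12%) and for detached minus attached (0.0353%). In C2, 0 were called for late minus early (0.0494%) and for detached minus attached (0.205%). At an unadjusted limma p under 0.05 the counts for late minus early were 3 in D4 (all probe sets 17.6%) and 1 in C2 (10.4%). For detached minus attached they were 2 in D4 (4.62%) and 8 in C2 (14.6%). The difference between the lines was tested too and gave 0 member calls for late minus early (all probe sets 0.00706%) and 0 for detached minus attached (0%). The unadjusted counts were 3 for late minus early (7.96%) and 0 for detached minus attached (2.74%).

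The other probe sets gave 1 call. Of 63 further tested MOE430A probe sets of the members, 1 was called for late minus early, against 3.38% of all tested probe sets. It was that of Cox6c, a small complex IV subunit, which is named here because of its value. It had a change of 0.70 (SE 0.17, adjusted p = 0.0401). The brightest probe set of Cox6c had 0.02 (95% interval -0.26 to 0.31, adjusted p = 0.954), so the probe sets disagree. On MOE430B, 10 probe sets of members and 8 of 7 respiratory chain genes not read on MOE430A were tested, and 0 were called for late minus early, with smallest adjusted p of 0.485 and 0.576. At an unadjusted limma p under 0.05 the count for late minus early was 0 for both, and for detached minus attached 1 member probe set and 0 of the others. The 3.38% above is the MOE430A share. No share over all tested MOE430B probe sets stands beside these MOE430B counts, so no result about the genes is drawn from them.

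Some genes that work beside the chain were called between late and early RNAs, as were 3.38% of all tested probe sets. Of 14 genes of the electron carriers and coenzyme Q synthesis, 1 rose and 0 fell. The gene that rose was Cyct, the testis form of cytochrome c, with a change of 1.28 (SE 0.21, adjusted p = 0.00508). Its mean log2 level was 10.81 in late RNAs and 9.52 in early RNAs. The somatic cytochrome c gene Cycs, named after its values were seen, had a change of 0.09 (SE 0.14). Of 74 genes of the mitochondrial ribosome, which translates the subunits encoded in mitochondrial DNA, 1 rose (Mrpl10, with a change of 0.35) and 1 fell (Mrps6, with a change of -0.62). Of these 74 genes, 61 had changes above 0, with a median of 0.18, against 47 of 85 members and 48.5% of all tested probe sets.

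No gene was called for late minus early among 16 of the citric acid cycle, 21 of complex assembly, 14 of mitochondrial biogenesis, 8 inner membrane carriers and 19 of protein import. At an unadjusted limma p under 0.05 the counts were 1, 1, 4, 0 and 3, in the same order, where the share of all tested probe sets was 18%. Tfam, which packages mitochondrial DNA and was also named after its values were seen, had a change of 0.44 (SE 0.14, adjusted p = 0.110). None of these 7 lists had a call for detached minus attached or for D4 minus C2, where 0.466% and 0% of all tested probe sets were called.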

How the data were processed

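Each of the 17 RNAs was hybridised to 2 Affymetrix arrays, MOE430A and MOE430B, with 3 RNAs per line and state and 2 for D4 late detached. The authors deposited signal intensities on a linear scale. The submitters' processing notes name MAS5 as the method, which scales each array separately. Its version was not given in the sources used here, and no detection calls were used. For arrays, the number of RNAs limits the precision.

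The deposited intensities were taken as log2(signal + 16), which understates the changes of dim probe sets, with no further scaling. Testing was limited to probe sets, other than controls, with a signal over the array median on 2 or more of 17 arrays. This left 14160 of 22690 on MOE430A. Gene symbols came from the platform annotation, in which 20393 MOE430A probe sets had 1 symbol, 691 several and 1606 none. All 87 members matched the reference gene table by identifier. Of the 85 tested member probe sets, 11 were of the s_at and 8 of the x_at kind, whose probes can match other transcripts.

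For each array type, limma 3.58.1 (R 4.3.3) was run over all tested probe sets, with a separate mean for each combination of line and state. Benjamini-Hochberg adjustment ran over that whole table, and calls needed an adjusted p under 0.05. Late is the equal mean of detached and attached, and both lines weigh equally. The fit was checked on simulated data. Fluidics runs were inferred by joining arrays of a station logged within 30 minutes.

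The members, the gene lists and the tests were chosen with earlier results of these data known. Named members are a list of core subunits and tissue isoforms, plus the member of each complex with the smallest p in each of the comparisons late minus early, detached minus attached and D4 minus C2. From the other lists, called genes were named. The NRF1-type letters were shortened after a longer form had been searched, which stood in fewer member windows. Promoter windows came from RefSeq, and the members without one in that table are Atp5a1, Atp5mpl, Cox4i1, Cox4i2, Cox6a2, Cox6c, Cox8c, Ndufa2, Ndufb9, Ndufs1, Sdhc, Uqcrb, Uqcrc2 and Uqcrq. The alternatives were other pseudocounts and filters, quantile normalization, array weights, a trended robust fit, the run and the replicate number as blocks, and fits without each RNA and without both arrays of unusual quality.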

Additional observations from a re-analysis of the deposited data

Results flagged for a closer look

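Ndufs3, a core subunit of complex I, had detached values on opposite sides of the attached values in the 2 lines. In D4, both detached values (12.29 and 12.25) lay below all attached values (12.41, 12.30 and 12.57). In C2, all detached values (12.34, 12.26 and 12.38) lay above all attached values (11.74, 12.03 and 12.16). The difference between the lines, D4 minus C2, was -0.51 (95% interval -1.07 to 0.06), and by limma its adjusted p was 1.00, so it did not pass the test. In D4 alone the change was -0.16 (95% interval -0.58 to 0.27) and in C2 alone 0.35 (95% interval -0.03 to 0.73). Groups stood apart in either direction for 22.2% of all tested probe sets in D4 (21 of 85 members) and 23% in C2 (22 of 85 members). The D4 attached and D4 detached arrays were logged on different days and the C2 arrays on the same day, so the line difference and the day cannot be told apart.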

How the results depend on the processing

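Of 409 counts of called members recomputed under other settings, 398 stayed at 0. With array weights, 1 member was called for C2 detached minus attached (Ndufs4), 1 for detached minus attached (Atp5g1) and 2 for detached minus early (Atp5g1 and Ndufs3). For detached minus early, 1 member, Atp5g1, was called with a trended robust fit (all probe sets 898) and a filter at the 75th percentile (821). It was also called with a pseudocount of 64 (694) and with the run as a fixed block (243). In fits without 1 RNA, the count ranged from 0 to 1 for late minus early, for D4 late minus early and for detached minus early, and the gene was Atp5g1. Each of these calls came without D4 early replicate 3, and that for detached minus early also without D4 late attached replicate 1 (adjusted p = 0.0384). Without D4 early replicate 3, the calls over all probe sets were 502, 209 and 835, in the same order. Without D4 late attached replicate 1 they were 705 for detached minus early. The cause of these changes was not tested. Where 1 D4 detached RNA was left out, the other is assumed to vary like the other groups. With the replicate number as a block (replicate block), 0 members were called in every comparison. Of 40 pairs of RNAs sharing a number, 7 had deviations correlated above 0.1, and all pairs ranged from -0.22 to 0.18. The labels do not say whether RNAs sharing a number had a common origin, and weak correlations cannot decide it. Of 4745 changes of single named members, 10 were called and 241 had the other sign, all of the latter uncalled. With the run as a fixed block, several comparisons averaged over both lines could not be estimated. With the run as a random block, the estimated correlation was -0.01 and 0 members were called.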
